A study of Mus musculus with 2 samples.

Results

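The SLAM family receptors and their adaptor SAP were described across the cells of mouse colorectal cancer liver metastases. The members were the 10 genes Ly9, Slamf1, Cd48, Cd244a, Cd84, Slamf6, Slamf7, Slamf8, Slamf9 and Sh2d1a, chosen by symbol among 56941 measured features, and each had 1 row in both libraries. Droplet-based 3' single-cell RNA sequencing had been run on CD45+ cells from liver metastases of MC38-LM3b, a subline of the mouse colon carcinoma line MC38 that was selected in vivo for spread to the liver. The tumor cells stably carried a scramble short hairpin RNA (label shScramble, called Ctrl) or a hairpin against SLAMF3 (label shSLAMF3, called KD), and were injected into the spleen of C57BL/6 mice of 6 to 8 weeks, with tissue taken 2 weeks later. Each group was 1 library that pooled 3 mice, so no value has a replicate error, no test was possible, and each interval given, at 95%, reflects the error of counting molecules and nothing else. The hairpin was carried by the injected tumor cells, not by the immune cells of the mouse, and both groups share the cell line, the lentiviral delivery of a hairpin and the route of injection.

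SLAM receptors are immunoglobulin-type proteins on the surface of blood cells. Most of them bind the same receptor on a neighboring cell, so that ligand and receptor are one molecule, whereas CD244 (2B4, Cd244a) binds CD48. The tails of SLAM (Slamf1), SLAMF3 (Ly9), CD84, SLAMF6 (Ly108), CD244 and SLAMF7 hold tyrosine switch motifs that recruit the small adaptors SAP (Sh2d1a) and EAT-2 (Sh2d1b1). SAP brings in the kinase FYN, and without these adaptors the same motifs can bind phosphatases such as SHP-1 (Ptpn6), SHP-2 (Ptpn11) and SHIP-1 (Inpp5d). CD48 has a lipid anchor and no tail, and SLAMF8 and SLAMF9 have short tails without these motifs. SAP is known for its part in T cell help to B cells, NKT cell development and killing by NK and CD8+ T cells, and SLAMF7 for its part in the uptake of blood cancer cells by macrophages.

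The hairpin sequences are given first, because they define the groups. The shSLAMF3 target sequence is the one that the study names for the injected cells, and both are 21 bases, read 5′ to 3′ in the sense direction.
shScramble: caacaagatgaagagcaccaa
shSLAMF3: caccctaatctgcactgtaaa
In the GENCODE vM21 mouse transcripts (build GRCm38), the shSLAMF3 sequence matched all 5 annotated transcripts of Ly9 and no transcript of another gene with 2 or fewer mismatches, over 55450 genes. The site lies at chr1:171601975-171601995 on the minus strand, in coding exon 3 of the 10 exons of transcript ENSMUST00000068878.13, at bases 609 to 629 of 2488. Its surroundings in that transcript, with the target site in capitals, are shown to place it within the coding sequence.
Ly9 target region: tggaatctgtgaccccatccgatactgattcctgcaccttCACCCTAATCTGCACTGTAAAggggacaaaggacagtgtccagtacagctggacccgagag
The other members differed from the shSLAMF3 sequence at 6 or more positions, the fewest being in Slamf6. The shScramble sequence differed from every member at 6 or more positions, and no annotated transcript came within 2 mismatches of it. Of the members, 9 lie on mouse chromosome 1 and Sh2d1a lies on X. Cd244a, Ly9, Slamf7, Cd48, Slamf1, Cd84 and Slamf6 follow one another there in this order, with 1 other protein-coding gene, between Cd48 and Slamf1, and Slamf9 and Slamf8 lie further along (RefSeq GRCm38.p6).

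The Ctrl library held 67207234 UMIs (unique molecular identifiers, 1 for each molecule counted) and the KD library 64444715. Filtering kept 9814 Ctrl and 10185 KD cells, and 24 of these had a barcode found in both libraries. Clustering without the members and their pathway genes gave 28 named classes, of which 21 had at least 50 cells in each library and enter the order of levels. Their make-up differed: the CD8+ T cell classes held 26.2% of kept cells in Ctrl and 10.1% in KD, granulocytes 8.20% and 22.7%, and the Ltc4s+ Pf4+ macrophages were 9 Ctrl and 397 KD cells. Levels are CPM, the summed UMIs of a gene scaled to the same total in every class, and differences are log2 ratios of KD over Ctrl CPM, given where a gene had at least 50 UMIs over both libraries. Counts of classes by ratio or interval cover only classes with at least 50 cells in each library. Since reads start at the 3' end, CPM compares one gene between cells, not one gene with another. Ptprc, which encodes CD45, stood at 40.9 and 37.5 CPM in the tumor or fibroblast class and at 98.4 and 121 in endothelial cells, against 964 and 1140.2 in T cells. Endothelial cells serve below as a CD45-low comparison, although Cd84 was found in them at the level of some T cells. The tumor or fibroblast class is not taken to lack Ly9, since the study reports SLAMF3 protein in this subline.

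Each member had its own distribution over the immune classes, described here for the 21 classes with at least 50 cells in each library. Sh2d1a and Slamf1 were T cell genes, and Slamf6 was highest in CD4+ T cells, B cells and naive-like T cells. Cd84 led in granulocytes, Cd244a in granulocytes and NK cells, and Slamf8 in macrophages. Slamf9 led in plasmacytoid dendritic cells (pDCs) and macrophages, and Slamf7 in conventional dendritic cells (cDC1s and cDC2s) and macrophages. Cd48 led in CD8+ T cells and Ly9 in NK cells. Classes were ordered by their level over both libraries, and neighbors were called apart where the range from the Ctrl to the KD value of one did not touch that of the next. The number of neighbors that stood apart was from 2 (Cd84) to 8 (Slamf6) of 20.

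**Figure D1:**
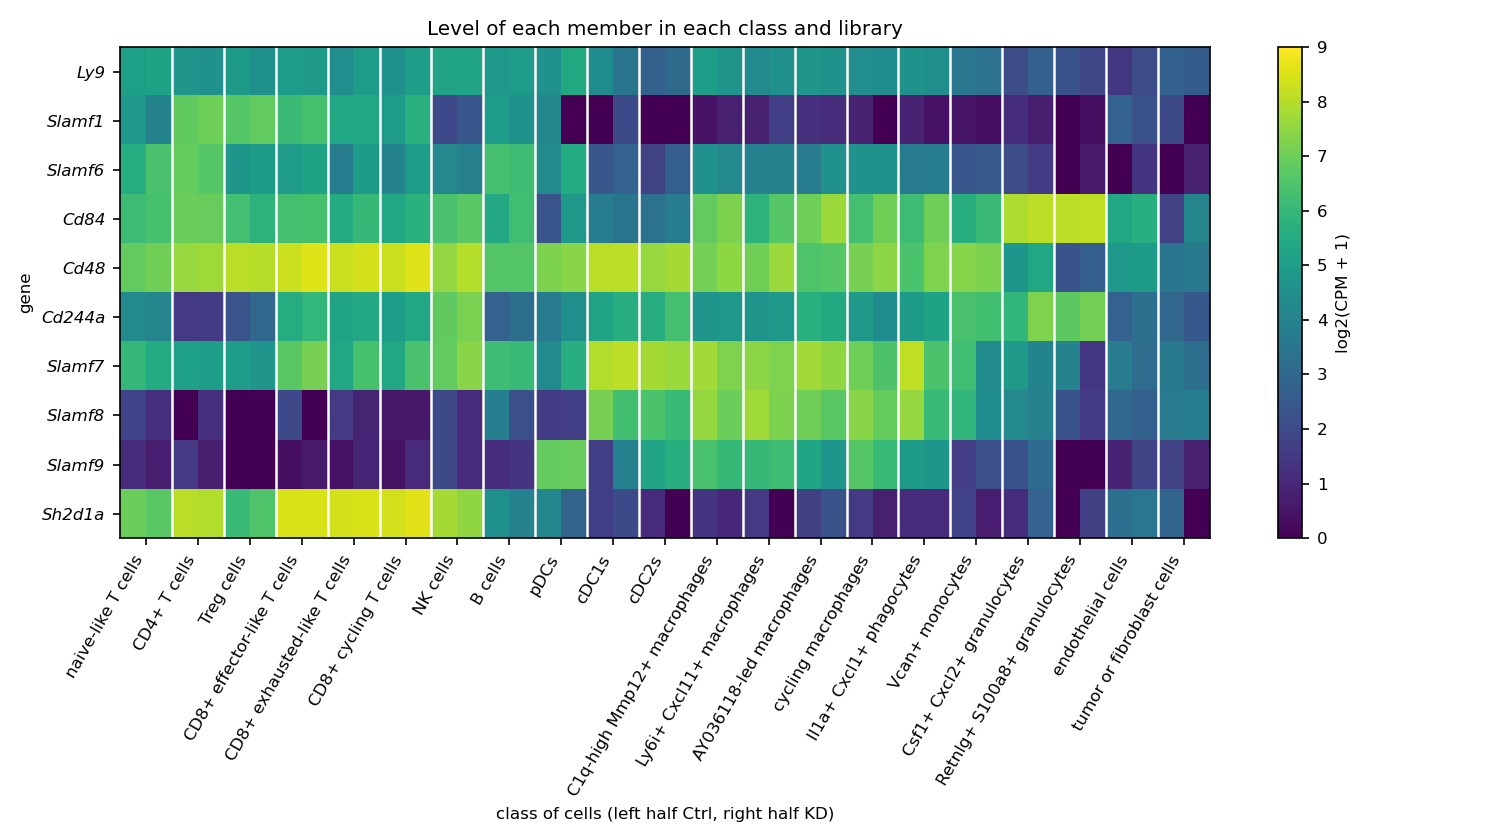
Level of the 10 members (rows) in 21 classes of cells (columns), as log2(CPM + 1), where 1 is the pseudocount; within each column Ctrl is on the left and KD on the right. Sh2d1a is bright from naive-like T cells to NK cells, with a high of 382 CPM in KD cycling CD8+ T cells, and dark in macrophages, whereas Slamf8 has the opposite pattern.

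Ly9 encodes SLAMF3, the protein that the hairpin was designed against. In the tumor or fibroblast class, the one that could hold hairpin-bearing cells, Ly9 had 5.91 CPM (3.05 to 10.3, 12 UMIs) in Ctrl and 5.36 CPM (2.15 to 11.04, 7 UMIs) in KD. These intervals overlap widely, and the class was not split into tumor cells and fibroblasts, so these cells do not check the knockdown. Among the 21 classes with 50 cells in each library, NK cells led for Ly9, at 37.0 CPM (23.9 to 54.6, 25 UMIs) in Ctrl and 36.8 CPM (25.5 to 51.4, 34 UMIs) in KD. Naive-like T cells followed at 33.3 (Ctrl) and 36.1 CPM (KD), pDCs at 22.5 (Ctrl) and 42.9 CPM (KD), CD8+ effector-like T cells at 29.6 (Ctrl) and 27.6 CPM (KD) and B cells at 26.7 (Ctrl) and 29.4 CPM (KD). C1q-high Mmp12+ macrophages came next, at 31.2 (Ctrl) and 24.2 CPM (KD). Macrophages together, with 3581 Ctrl and 2417 KD cells, held 39.8% of the Ly9 UMIs in Ctrl and 35.5% in KD. T cells held 41.4% and 32.8%, and NK cells, with 182 and 218 cells, 1.85% and 2.94%. The counting intervals of NK cells take in both values of naive-like T cells. From naive-like T cells down to CD8+ exhausted-like T cells, 11 classes formed a run, each overlapping in range with its neighbor inside the run. Ly9 was low in granulocytes, at 3.20 (Ctrl) and 5.78 CPM (KD) in the Csf1+ Cxcl2+ class, and in cDC2s, at 5.81 (Ctrl) and 7.60 CPM (KD). Endothelial cells had 1.74 (Ctrl) and 3.26 CPM (KD). Ly9 differed by more than counting error in 3 of the 12 classes with at least 50 cells in each library and enough UMIs. In none of these 12 was it past 1.5-fold. Kupffer cells, with only 48 cells in Ctrl, fell outside this count and are described at the end. Among the 3 classes, the direction was not the same. Ly9 was higher in KD in CD8+ exhausted-like T cells, with a log2 ratio of 0.56 (0.13 to 0.97), and in CD8+ cycling T cells, 0.52 (0.18 to 0.86). It was lower in C1q-high Mmp12+ macrophages, -0.37 (-0.66 to -0.079). In NK cells the ratio was -0.0093 (-0.80 to 0.80), so a difference was not detectable at this depth.

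Slamf1 was carried mostly by T cells, and Slamf6 had its highest levels in lymphocytes but was also found in macrophages. Slamf1, a self-ligand and costimulatory receptor of activated T cells, was highest in CD4+ T cells at 110.3 CPM (83.8 to 143, 58 UMIs) in Ctrl and 129 CPM (112 to 149, 192 UMIs) in KD. Treg cells had 97.3 (Ctrl) and 113 CPM (KD), and the ranges of these top 2 classes overlapped. CD8+ effector-like T cells followed with 68.5 (Ctrl) and 82.9 CPM (KD), apart from the classes on either side. The exhausted-like CD8+ cells stood at 41.3 (Ctrl) and 41.1 CPM (KD), and B cells at 30.3 (Ctrl) and 21.7 CPM (KD). NK cells had only 2 UMIs in Ctrl and 4 in KD, and cDC2s had 0 in both libraries. T cells held 81.1% of the Slamf1 UMIs in Ctrl and 77.0% in KD. Slamf1 was higher in KD in CD8+ cycling T cells, 29.5 (Ctrl) and 51.8 CPM (KD), a log2 ratio of 0.81 (0.54 to 1.08). In CD4+ T cells it was 0.23 (-0.20 to 0.68) and in CD8+ exhausted-like cells -0.0044 (-0.35 to 0.33).

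Slamf6 (Ly108) is a SAP-binding self-ligand known as a marker of less differentiated CD8+ T cells. Among the classes with at least 50 cells in each library, it was highest in CD4+ T cells. It stood there at 116 CPM (88.7 to 149, 61 UMIs) in Ctrl and 96.9 CPM (81.7 to 114, 144 UMIs) in KD. The Tcf7-high CD8+ T cells, too few for this order and described at the end, had more. B cells had 81.3 (Ctrl) and 72.0 CPM (KD) and naive-like T cells 46.9 (Ctrl) and 84.2 CPM (KD). In CD8+ exhausted-like T cells it was low in Ctrl, 13.1 CPM (10.8 to 15.7, 113 UMIs), and higher in KD, 29.2 CPM (22.6 to 37.1, 66 UMIs), a log2 ratio of 1.16 (0.70 to 1.61). CD8+ cycling T cells went from 15.4 to 30.1 CPM, 0.96 (0.60 to 1.33), and naive-like T cells had 0.84 (0.31 to 1.41), which was 0.41 with classes from single cells. The ratio was 0.20 (-0.27 to 0.66) in CD8+ effector-like cells, -0.26 (-0.70 to 0.20) in CD4+ T cells and -0.18 (-0.59 to 0.25) in B cells, all with 0 inside the interval. Slamf6 was past 1.5-fold in 3 of the 10 classes with enough UMIs, all of them T cells. For comparison, the effector-like class stood at 30.8 (Ctrl) and 35.4 CPM (KD) and C1q-high Mmp12+ macrophages at 22.6 (Ctrl) and 17.8 CPM (KD). Macrophages held 34.8% of the Slamf6 UMIs in Ctrl and 21.8% in KD, and T cells 46.8% and 46.9%.

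**Figure D2:**
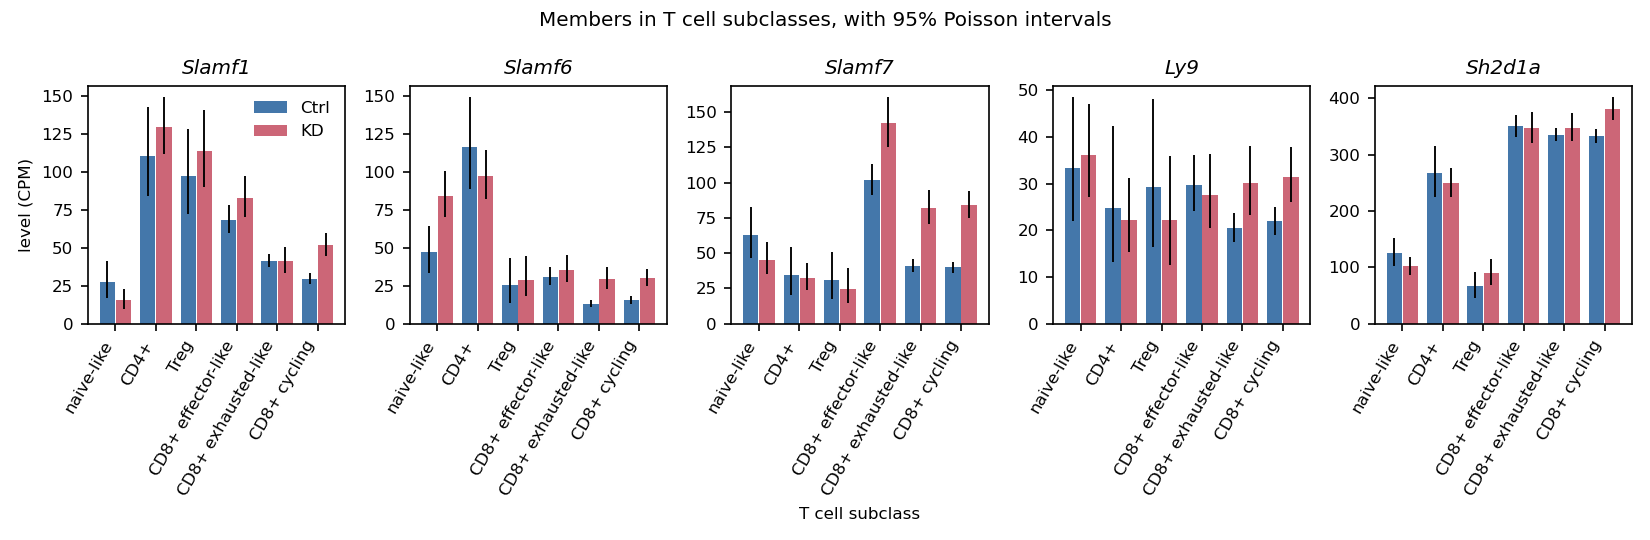
Levels in CPM of Slamf1, Slamf6, Slamf7, Ly9 and Sh2d1a in 6 T cell subclasses, with Ctrl and KD bars and 95% Poisson intervals that cover counting error only. Slamf6 and Slamf7 are higher in KD in the exhausted-like and cycling CD8+ classes, where Slamf7 stood at 41.0 and 39.8 CPM in Ctrl and at 82.3 and 84.1 in KD. The Sh2d1a bars of these classes differ by less, at 336 (Ctrl) and 348 CPM (KD) in the exhausted-like and 333 (Ctrl) and 382 CPM (KD) in the cycling class.

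Cd84, a SAP-binding self-ligand found on granulocytes, platelets, B cells and T cells, was highest in granulocytes. The Retnlg+ S100a8+ class had 271 CPM (211 to 342, 70 UMIs) in Ctrl and 278 CPM (261 to 296, 986 UMIs) in KD, and the Csf1+ Cxcl2+ class 235 (Ctrl) and 277 CPM (KD). Below these, from the AY036118-led macrophages (128 and 197 CPM) to CD8+ cycling T cells (40.5 and 52.6 CPM), 15 classes formed a run, with every neighbor inside it overlapping in range. Endothelial cells lay within this run, at 40.1 (Ctrl) and 48.9 CPM (KD), a level close to that of CD8+ cycling and exhausted-like T cells. The cDC classes were low, at 9.30 (Ctrl) and 12.7 CPM (KD) in cDC2s. Cd84 was higher in KD in every one of the 5 macrophage classes compared. The log2 ratio was 0.84 (0.54 to 1.12) in Ly6i+ Cxcl11+ macrophages, 0.83 (0.57 to 1.10) in Il1a+ Cxcl1+ phagocytes and 0.70 (0.44 to 0.96) in cycling macrophages. It was 0.62 (0.34 to 0.91) in AY036118-led macrophages and, under 1.5-fold, 0.40 (0.27 to 0.54) in C1q-high Mmp12+ macrophages. B cells went from 42.5 to 74.8 CPM, 0.82 (0.29 to 1.38), and Vcan+ monocytes had 0.47 (0.14 to 0.80). The B cell ratio was under 1.5-fold with classes from single cells (0.51) and with members as variable genes (0.55). In its leading class the ratio was 0.037 (-0.31 to 0.41). No class with at least 50 cells in each library had a Cd84 interval below 0. S100a8, a granulocyte gene, was also higher in KD outside granulocytes, at 20.4 (Ctrl) and 68.2 CPM (KD) in macrophages and 34.0 (Ctrl) and 125 CPM (KD) in B cells, against 20279.6 (Ctrl) and 35450.1 CPM (KD) in granulocytes. The part of granulocyte RNA in these ratios was not tested.

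Cd48 and Cd244a encode a ligand and its receptor, and their levels ran differently over the classes. Cd48 led in the CD8+ T cell classes, with 312 CPM (294 to 332, 1044 UMIs) in Ctrl and 380.3 CPM (352 to 409.8, 688 UMIs) in KD in CD8+ effector-like cells, 308 (Ctrl) and 375 CPM (KD) in cycling and 309 (Ctrl) and 342 CPM (KD) in exhausted-like cells, whose ranges overlapped. The cDC1s had 266 (Ctrl) and 272 CPM (KD), NK cells 186 (Ctrl) and 254 CPM (KD), and macrophage classes between 87.5 and 198 CPM. Retnlg+ S100a8+ granulocytes had almost none, 3.87 (Ctrl) and 5.64 CPM (KD), below the 27.0 and 28.9 CPM of endothelial cells. Cd48 was higher in KD past 1.5-fold in Il1a+ Cxcl1+ phagocytes, 0.79 (0.55 to 1.03), Ly6i+ Cxcl11+ macrophages, 0.60 (0.40 to 0.80), and Csf1+ Cxcl2+ granulocytes, 0.65 (0.12 to 1.203). In the granulocytes the size fell under 1.5-fold without the cells of highest Scrublet score (0.20), with members as variable genes (0.25), after thinning (0.24) and under TMM (0.45), and in Ly6i+ Cxcl11+ macrophages at resolution 1.0 (0.49) and under TMM (0.58). In the CD8+ classes the ratio was smaller, 0.28 (0.14 to 0.42) in effector-like, 0.28 (0.19 to 0.38) in cycling and 0.14 (0.026 to 0.26) in exhausted-like cells. In 9 of 19 classes the interval lay above 0 and in none below.

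Cd244a, a receptor of killer cells and myeloid cells, was highest in granulocytes and NK cells. Retnlg+ S100a8+ granulocytes had 104 CPM (68.9 to 152, 27 UMIs) in Ctrl and 138 CPM (126 to 150.4, 488 UMIs) in KD, and NK cells 111 CPM (87.3 to 139, 75 UMIs) in Ctrl and 144 CPM (120.4 to 170.4, 133 UMIs) in KD. Vcan+ monocytes followed with 85.0 (Ctrl) and 75.6 CPM (KD) and CD8+ effector-like T cells with 47.0 (Ctrl) and 60.8 CPM (KD), whereas CD4+ T cells had 1 UMI in Ctrl and 3 in KD. In Csf1+ Cxcl2+ granulocytes Cd244a went from 60.2 CPM (48.7 to 73.7, 94 UMIs) to 152 CPM (138 to 167, 447 UMIs), a log2 ratio of 1.34 (1.01 to 1.67). Scaling by TMM, which shifted all genes of this class by -0.20, gave 1.14 for the gene. The cDC2s also had more in KD, 0.76 (0.25 to 1.29). The ratio was 0.37 (-0.045 to 0.80) in NK cells and -0.17 (-0.44 to 0.11) in monocytes. Receptor and ligand transcripts were both detected in several classes, among them NK cells, CD8+ effector-like T cells, Vcan+ monocytes, cDC1s and cDC2s. In Vcan+ monocytes Cd48 had 162 (Ctrl) and 148 CPM (KD). The cDC2s had Cd244a at 47.6 (Ctrl) and 80.6 CPM (KD) and Cd48 at 195 (Ctrl) and 217 CPM (KD). Granulocytes had the receptor and little of the ligand.

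Slamf7 (CRACC), a self-ligand that signals through EAT-2, was highest in cDC1s, at 250.4 CPM (207 to 301, 114 UMIs) in Ctrl and 271 CPM (239.6 to 306, 264 UMIs) in KD. The macrophage classes and cDC2s came next, with 216 (Ctrl) and 180.2 CPM (KD) in AY036118-led macrophages, 218 (Ctrl) and 198 CPM (KD) in cDC2s and 213 (Ctrl) and 153 CPM (KD) in C1q-high Mmp12+ macrophages. NK cells had 114 (Ctrl) and 167 CPM (KD) and CD8+ effector-like T cells 102 (Ctrl) and 142 CPM (KD). Among classes with at least 50 cells in each library, the Slamf7 ratio was positive in CD8+ T cells and NK cells. In those classes, it was negative in monocytes and all macrophages. It was higher in KD in CD8+ cycling T cells, 1.08 (0.86 to 1.299), and exhausted-like T cells, 1.00 (0.74 to 1.26), and by less than 1.5-fold in effector-like T cells, 0.48 (0.24 to 0.72), and NK cells, 0.55 (0.14 to 0.96). The ratio fell under 1.5-fold in the cycling class after thinning, 0.55, and in the exhausted-like class with classes from single cells, 0.46. It was lower in Vcan+ monocytes, where 73.9 CPM (63.4 to 85.8, 174 UMIs) in Ctrl stood against 19.3 CPM (14.9 to 24.7, 65 UMIs) in KD, a log2 ratio of -1.93 (-2.37 to -1.52). Il1a+ Cxcl1+ phagocytes fell from the highest Ctrl level of all, 284 CPM (263 to 306, 698 UMIs), to 87.0 CPM (76.3 to 98.8, 239 UMIs), -1.71 (-1.92 to -1.49). The other macrophage classes had smaller differences, -0.53 (-0.82 to -0.25) in cycling, -0.48 (-0.59 to -0.37) in C1q-high Mmp12+ and -0.17 (-0.39 to 0.041) in Ly6i+ Cxcl11+ macrophages, the last with 0 inside its interval, and in its leading class, cDC1s, the ratio was 0.12 (-0.21 to 0.45). In Csf1+ Cxcl2+ granulocytes it was -0.82 (-1.45 to -0.18). C1qa, a macrophage gene, stood at 22.9 (Ctrl) and 26.0 CPM (KD) in T cells and at 2545 (Ctrl) and 2579 CPM (KD) in macrophages.

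Slamf8 and Slamf9, the members with short tails, were myeloid genes. Slamf8, an interferon-inducible receptor of macrophages, was highest in Ly6i+ Cxcl11+ macrophages, at 208 CPM (198 to 219, 1629 UMIs) in Ctrl and 148 CPM (128 to 170.1, 201 UMIs) in KD. Cycling macrophages had 167 (Ctrl) and 117 CPM (KD), C1q-high Mmp12+ macrophages 189 (Ctrl) and 126 CPM (KD) and cDC1s 141 (Ctrl) and 77.1 CPM (KD), and each of these ranges overlapped with that of its neighbor. In T cells as a whole it had 34 UMIs in Ctrl and 10 in KD, or 1.42 (Ctrl) and 0.815 CPM (KD). Slamf8 was lower in KD in all 9 classes with enough UMIs, with 6 intervals below 0. The log2 ratio was -1.60 (-2.04 to -1.17) in Vcan+ monocytes, -1.46 (-1.72 to -1.22) in Il1a+ Cxcl1+ phagocytes, -0.87 (-1.37 to -0.36) in cDC1s and -0.59 (-0.71 to -0.47) in C1q-high Mmp12+ macrophages, which is just past 1.5-fold. The latter was under 1.5-fold with TMM (-0.51), a stricter cell filter (-0.584), thinning (-0.54) and without the cells of highest Scrublet score (-0.54), and that of cDC1s after thinning (-0.47). The ratio was -0.51 (-0.76 to -0.26) in cycling macrophages and -0.49 (-0.71 to -0.28) in its leading class, both under 1.5-fold.

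Slamf9 led in pDCs, at 114 CPM (86.3 to 148, 56 UMIs) in Ctrl and 120.2 CPM (90.8 to 156, 56 UMIs) in KD, apart from all other classes. Macrophages followed, with 97.6 (Ctrl) and 67.8 CPM (KD) in the cycling, 84.5 (Ctrl) and 64.6 CPM (KD) in the C1q-high Mmp12+ and 63.9 (Ctrl) and 72.2 CPM (KD) in the Ly6i+ Cxcl11+ class. The counting intervals of pDCs in both libraries take in the Ctrl value of the cycling class. The cDC2s had 37.2 (Ctrl) and 49.7 CPM (KD), whereas cDC1s had 1 UMI in Ctrl and 14 in KD, and Vcan+ monocytes 2.12 (Ctrl) and 3.57 CPM (KD). Monocytes thus had the Slamf8 transcript at 59.5 and 19.6 CPM and almost no Slamf9. Slamf9 was lower in KD in cycling macrophages, -0.52 (-0.86 to -0.20), and C1q-high Mmp12+ macrophages, -0.39 (-0.56 to -0.21), both under 1.5-fold, and the ratio in pDCs was 0.072 (-0.49 to 0.63).

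The adaptor gene Sh2d1a (SAP) was highest in T cells and NK cells, with 88.7% of its UMIs in T cells in Ctrl and 82.0% in KD. Among CD8+ cells, the effector-like class had 351 CPM (331 to 371, 1173 UMIs) in Ctrl and 347 CPM (320.5 to 375, 628 UMIs) in KD, cycling 333 (Ctrl) and 382 CPM (KD) and exhausted-like 336 (Ctrl) and 348 CPM (KD), with overlapping ranges. Below these, CD4+ T cells (268 and 249 CPM), NK cells (222 and 183 CPM), naive-like T cells (125 and 102 CPM) and Treg cells (66.2 and 89.8 CPM) each stood apart from the next. B cells had 21.8 (Ctrl) and 14.9 CPM (KD), beside 30.3 and 18.9 CPM of the T cell gene Cd3e. Macrophages had 1.74 (Ctrl) and 1.06 CPM (KD), beside 4.34 and 1.38 CPM of Cd3e, which had 442 (Ctrl) and 352 CPM (KD) in T cells. Among classes with at least 50 cells in each library, none had a Sh2d1a ratio past 1.5-fold. Of these, the one interval that lay off 0 was that of CD8+ cycling T cells, 0.20 (0.10 to 0.29). The leading class had -0.015 (-0.16 to 0.13). Sh2d1b1 (EAT-2), the adaptor of NK cells and myeloid cells, was found in myeloid classes with little Sh2d1a, with 31.4 (Ctrl) and 52.7 CPM (KD) in cDC2s and 24.7 (Ctrl) and 34.2 CPM (KD) in C1q-high Mmp12+ macrophages. NK cells had both adaptors, with Sh2d1b1 at 51.8 (Ctrl) and 36.8 CPM (KD). Sh2d1b2, the third adaptor gene of the mouse, had 5 UMIs in Ctrl and 4 in KD over all kept cells.

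The counts of members past 1.5-fold were set beside those of all genes with at least 50 UMIs in the same cells. In T cells as a whole, the members past 1.5-fold were 2 higher in KD and 0 lower, of 8 with enough UMIs, beside 8.39% and 5.26% of all 12578 genes. The higher members were Slamf6 and Slamf7, with log2 ratios of 1.19 (1.03 to 1.36) and 0.62 (0.49 to 0.74). The exhausted-like, effector-like and cycling CD8+ classes held 1013, 761 and 710 of 2999 T cells in Ctrl and 271, 398 and 312 of 1952 in KD. With the 6 subclasses at equal weight these ratios were 0.52 and 0.28. In NK cells, the members past 1.5-fold were 0 higher in KD and 0 lower, of 6 with enough UMIs, beside 4.68% and 7.91% of all 4655 genes. In B cells, the members past 1.5-fold were 1 higher in KD and 0 lower, of 7 with enough UMIs, beside 4.83% and 6.67% of all 6703 genes, and the higher one was Cd84. In macrophages and monocytes together, the members past 1.5-fold were 1 higher in KD and 3 lower, of 9 with enough UMIs, beside 6% and 9.79% of all 13109 genes. Cd84 was the higher one, and Slamf7, Slamf8 and Sh2d1a the lower ones, the last with 46 UMIs in Ctrl and 22 in KD. These sums also rest on different classes, with 1280 Ctrl and 215 KD cells in the Ly6i+ Cxcl11+ class, 825 and 320 in the AY036118-led class, 620 and 1053 in the C1q-high Mmp12+ class and 9 and 397 in the Ltc4s+ Pf4+ class. In granulocytes, the members past 1.5-fold were 1 higher in KD and 2 lower, of 5 with enough UMIs, beside 19.5% and 14.4% of all 7706 genes. Cd244a was higher there, 1.02 (0.75 to 1.31), and Slamf7, -1.51 (-2.06 to -0.95), and Slamf8, -0.93 (-1.57 to -0.27), were lower. The Csf1+ Cxcl2+ class held 697 of 805 granulocytes in Ctrl and 1139 of 2311 in KD, so these sums rest on different classes. In dendritic cells, the members past 1.5-fold were 1 higher in KD and 0 lower, of 8 with enough UMIs, beside 4.67% and 7.07% of all 8927 genes, and the higher one was Cd244a, 0.64 (0.30 to 1.00).

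In single classes, 3 of 8 members were past 1.5-fold in either direction in CD8+ cycling T cells, beside 9.59% of genes. The count was 2 of 8 in CD8+ exhausted-like T cells, beside 9.36%, and 0 of 8 in CD8+ effector-like T cells, beside 7.43%. It was 4 of 8 in Il1a+ Cxcl1+ phagocytes, beside 21.6%, 2 of 8 in Ly6i+ Cxcl11+ macrophages, beside 15.9%, and 1 of 8 in C1q-high Mmp12+ macrophages, beside 11.7%. In Vcan+ monocytes it was 2 of 6, beside 17.2%, and in Csf1+ Cxcl2+ granulocytes 3 of 5, beside 34.9%. The median log2 ratio of the members was 0.47 in CD8+ cycling T cells, where that of all genes was -0.045. In CD8+ exhausted-like T cells these medians were 0.33 and -0.015, and in C1q-high Mmp12+ macrophages -0.36 and -0.045. They were 0.24 and -0.043 in CD8+ effector-like T cells, -0.016 and 0.079 in Il1a+ Cxcl1+ phagocytes and 0.20 and -0.046 in Ly6i+ Cxcl11+ macrophages. In Vcan+ monocytes they were -0.19 and 0.033, and in Csf1+ Cxcl2+ granulocytes 0.23 and 0.26. Among these 8 classes, the share of all genes past 1.5-fold was highest in the Csf1+ Cxcl2+ granulocytes.

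**Figure D3:**
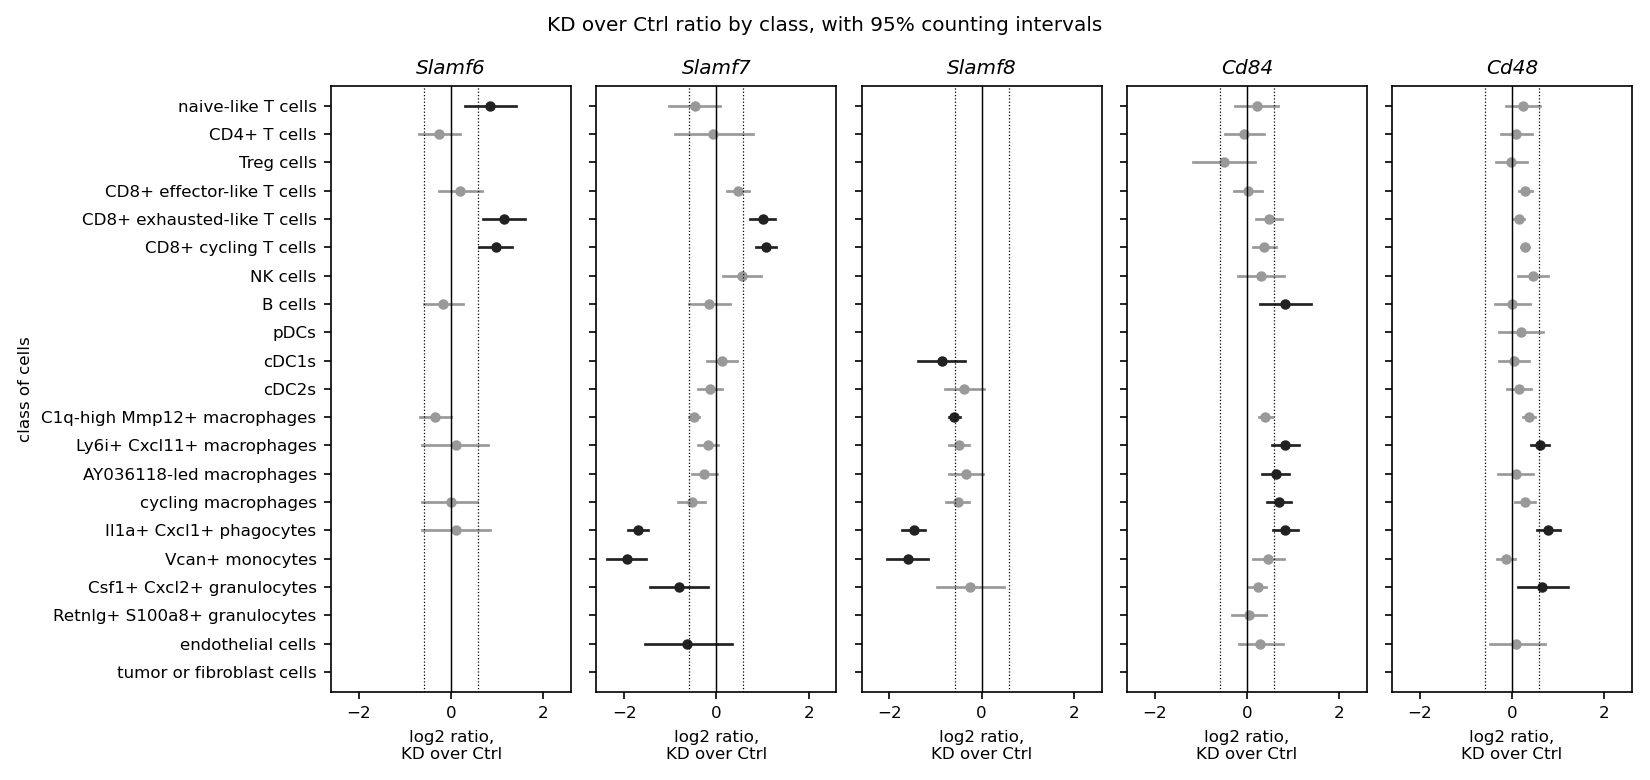
Log2 ratio of KD over Ctrl (horizontal axis) for Slamf6, Slamf7, Slamf8, Cd84 and Cd48 in each class (vertical axis) with at least 50 UMIs of the gene; lines are 95% counting intervals, dotted lines mark 1.5-fold and dark points lie past it. Slamf7 lies right of 0 in CD8+ T cells and far left in Il1a+ Cxcl1+ phagocytes and Vcan+ monocytes, at -1.71 and -1.93, Slamf8 lies left of 0 in every class shown, and Cd84 lies right of 0 in all macrophage classes.

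Over all kept cells together, the ratios mixed the level within classes with the share of each class. Sh2d1a had 8807 UMIs in Ctrl and 4478 in KD, or 137 and 72.6 CPM, a log2 ratio of -0.92 (-0.97 to -0.87). With each class given the same weight in both libraries the levels were 106 and 108 CPM, and the ratio was 0.020. Slamf1 and Cd48 turned from -0.29 (-0.41 to -0.17) and -0.19 (-0.23 to -0.16) to 0.17 and 0.24 in the same way. Ly9 moved from -0.16 (-0.28 to -0.048) to 0.011. Slamf8 stayed lower in KD, with -0.84 (-0.90 to -0.77) over all cells and -0.60 at fixed weights, and Cd84 stayed higher, with 0.81 (0.76 to 0.86) and 0.43. For Slamf6 the values were 0.28 (0.17 to 0.40) and 0.37, and for Slamf7 -0.38 (-0.43 to -0.33) and -0.21. The source of the UMIs shifted accordingly. Granulocytes held 5.59% of the Cd244a UMIs in Ctrl and 32.8% in KD, and 10.5% and 27.2% of those of Cd84.

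**Figure D4:**
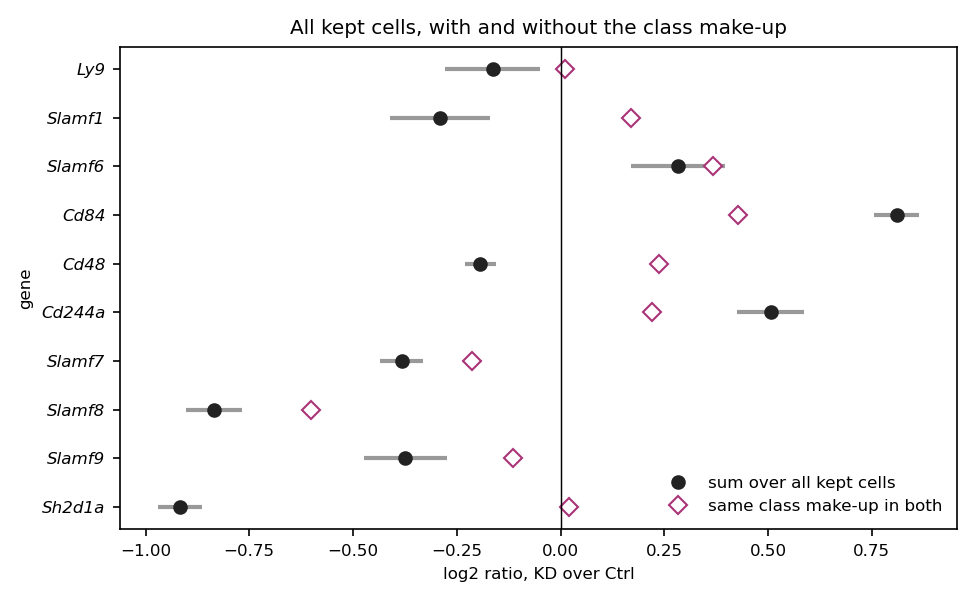
Log2 ratio of KD over Ctrl (horizontal axis) of each member (vertical axis) over all kept cells, as black points with 95% counting intervals, and with every class given the same weight in both libraries, as open diamonds. The Sh2d1a point at -0.92 moves to 0.020, while Slamf8 and Cd84 keep their side of 0.

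The share of cells with at least 1 UMI was compared with every cell thinned to 1500 UMIs. This dropped 745 Ctrl and 593 KD cells that had fewer. Sh2d1a was seen in 38.6% of 747 Ctrl cells (35.0% to 42.2%) and 36.2% of 389 KD cells (31.5% to 41.2%) of the CD8+ effector-like class. In macrophages, which should lack it, the shares were 0.182% and 0.130%. Slamf8 was seen in 25.4% of 1239 Ctrl cells (23.0% to 27.9%) and 16.9% of 207 KD cells (12.1% to 22.7%) of the Ly6i+ Cxcl11+ macrophages, against 0.303% and 0.208% of T cells. Cd48 was seen in 35.9% of 747 Ctrl cells (32.4% to 39.4%) and 41.4% of 389 KD cells (36.4% to 46.5%) of the CD8+ effector-like class, against 2.44% and 2.66% of endothelial cells. Without thinning these shares were 70.2% and 69.6% for Sh2d1a (macrophages 0.949% and 0.827%), 63.5% and 52.1% for Slamf8 (T cells 1.13% and 0.512%), and 67.4% and 73.1% for Cd48 (endothelial cells 10.0% and 8.99%). Median depths were 4272 and 4426 UMIs in the effector-like class, 5554 and 6407 in Ly6i+ Cxcl11+ macrophages, 5548 and 7562 in all macrophages, 6710.0 and 5018 in T cells, and 7079.5 and 6234 in endothelial cells.

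Ly9 was seen in 6.21% of 161 Ctrl cells (3.02% to 11.1%) and 5.69% of 211 KD cells (2.97% to 9.72%) of thinned NK cells, above the 0.813% and 0.177% of endothelial cells (unthinned, 13.7% and 15.1% against 1.33% and 1.86%). Slamf6 had no UMI in any of the 123 thinned Ctrl endothelial cells, which allows a share of up to 2.44%, or of the 564 in KD, up to 0.532%, and was seen in 13.95% of 129 Ctrl cells (8.48% to 21.2%) and 11.3% of 328 KD cells (8.07% to 15.2%) of CD4+ T cells. Without thinning, the endothelial shares were 0% and 0.775% and those of CD4+ T cells 25.8% and 24.9%. In their leading classes, 4 of the 10 members had a higher share in KD than in Ctrl.

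Of the 35 other genes of the pathway, which cover adaptors, kinases, phosphatases and partners of SLAM signaling, 7 of 33 were higher in KD past 1.5-fold and 0 lower in T cells, where 8.39% and 5.26% of all genes were. Their median log2 ratio was 0.19 against -0.016 for all genes. The higher genes were Prkcq and Malt1, which link the receptors to NF-κB, at 0.66 (0.57 to 0.74) and 0.70 (0.63 to 0.77), the kinase gene Syk at 1.496 (1.03 to 1.96) and the transcription factor genes Runx1, 1.29 (1.22 to 1.35), Bcl6, 0.82 (0.64 to 1.00), and Zbtb16, 1.68 (1.40 to 1.97), with the cytokine gene Il4, 2.77 (2.26 to 3.31). Zbtb16 and Il4 belong to innate-like T cells and T cell help. The Zbtb16+ Il17a+ class had 27 of 2999 T cells in Ctrl and 117 of 1952 in KD, and its part in these ratios was not tested. The T cell sums mix subclasses whose shares differed between libraries. Within subclasses, pathway genes past 1.5-fold were 5 higher and 1 lower of 32 in CD8+ cycling cells. They were 2 and 2 of 31 in exhausted-like, 0 and 0 of 29 in effector-like and 2 and 2 of 27 in naive-like cells. They were 3 and 0 of 25 in CD4+ T cells and 3 and 0 of 19 in Treg cells. Runx1 was 166 (Ctrl) and 404 CPM (KD) in T cells. Its log2 ratio ran from 0.35 (effector-like) to 1.11 (cycling) in the 6 subclasses. In NK cells, 1 of 29 were higher in KD past 1.5-fold and 1 lower (all genes 4.68% and 7.91%, median -0.13 against -0.061 for all genes). Zbtb16 was the higher one, 0.70 (0.070 to 1.36), and Itgam, an integrin gene, the lower one, -1.27 (-1.98 to -0.58). In B cells, 0 of 27 were higher in KD past 1.5-fold and 1 lower (all genes 4.83% and 6.67%, median -0.062 against -0.034 for all genes), and the lower gene, Plcg1, had a ratio of -0.64 (-1.52 to 0.30) from 17 UMIs in Ctrl and 33 in KD.

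In macrophages and monocytes, 2 of 33 were higher in KD past 1.5-fold and 3 lower (all genes 6% and 9.79%, median -0.026 against -0.038 for all genes). Itgam, which encodes the CD11b chain of the integrin that SLAMF7 is known to pair with in phagocytosis, was higher, 0.87 (0.81 to 0.92), as was Zbtb16, 0.95 (0.67 to 1.25). Lck, -0.78 (-1.55 to -0.038), and Prkcq, -0.59 (-1.36 to 0.15), were among the lower ones, from 47 UMIs in Ctrl and 24 in KD for Lck. In granulocytes, 5 of 26 were higher in KD past 1.5-fold and 3 lower (all genes 19.5% and 14.4%, median 0.12 against 0.12 for all genes). These shares were close to those of all genes. Bcl10, 0.65 (0.47 to 0.83), Plcg2, 0.69 (0.39 to 1.00), Rps6kb1, 0.60 (0.22 to 0.98), Arhgef7, 0.83 (0.041 to 1.72), and Rptor, 0.59 (-0.12 to 1.38), lay past 1.5-fold upward, the last with 0 inside its interval. Malt1, -1.22 (-1.36 to -1.08), Runx1, -0.92 (-1.02 to -0.83), and Prkcq, -1.28 (-1.98 to -0.56), were lower. In dendritic cells, 2 of 28 were higher in KD past 1.5-fold and 1 lower (all genes 4.67% and 7.07%, median -0.017 against -0.066 for all genes). Sh2d1b1, 0.59 (0.15 to 1.04), and Itgam, 0.92 (0.55 to 1.29), were higher, and Cd1d1, which presents lipids to NKT cells, was lower, -0.77 (-1.12 to -0.42).

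Likeness of pattern was described by Pearson's r of log2(CPM + 1) over 42 profiles, 21 classes in each of both libraries, among 13586 genes with at least 10 CPM in a profile. These points share libraries and, within a lineage, cell origin, so r is a description. Within the family, Ly9 and Slamf6 were most alike, at 0.88, followed by Slamf1 and Sh2d1a at 0.87, Ly9 and Cd48 at 0.73 and Slamf8 and Slamf9 at 0.72. Cd48 and its receptor gene Cd244a had 0.0059, and Slamf8 and Sh2d1a were most unlike, at -0.80. Over all genes, Sh2d1a was most like Trbc2 (0.98), Sh2d2a (0.97), Lck (0.97), and Slamf1 most like Cd6 (0.93), A430093F15Rik (0.93), Sit1 (0.93). Slamf8 was most like Pid1 (0.95), Aif1 (0.95), Adap2 (0.94), and Slamf9 most like Cds1 (0.90), Slc29a3 (0.89), Ppfia4 (0.89). Ly9 was most like Slamf6 (0.88), Fahd2a (0.79), Ptpn18 (0.79), Slamf6 most like Ly9 (0.88), Il21r (0.83), Ifi214 (0.83) and Cd48 most like Runx3 (0.89), Ptpn18 (0.89), Fbxl6 (0.87). Cd84 was most like Slc28a2 (0.85), Vsir (0.78), Lcp2 (0.74), Cd244a most like Gm20528 (0.81), Ugt1a7c (0.81), Sema4a (0.80) and Slamf7 most like Otulinl (0.81), Evl (0.78), Phf11b (0.78).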

How the data were processed

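The deposited values are raw UMI counts per gene and cell, which the authors made with Cell Ranger 7.1.0 on GRCm39, per the labels and the submitters' processing notes, without normalization. Every deposited barcode held at least 500 UMIs. The study's stated limits (a minimum of 200 genes, and maxima of 10% mitochondrial reads, 30000 UMIs and 6000 genes, the last 2 meant to remove doublets) left 19999 of 21359 cells, a few more than the study states, and 1447 fell in clusters without a name. No doublet caller was run in the reported results.

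Clusters (Seurat 5.3.0, R 4.3.3; 2000 variable genes, 20 components, resolution 0.5, no integration) were named from at least 3 markers of fixed lists, in 2 rounds, and called by leading genes otherwise. Clusters depend on the numerical kernel, which was fixed. UMIs were summed per class. Intervals are exact Poisson, Clopper-Pearson or conditional binomial, at 95%, and cover counting error only. A share of 0 was bounded by 3 counts. The ratio was tested on simulated data. Alternatives included Scrublet (Scanpy 1.11.5) and TMM (edgeR 4.0.16).

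Named genes were the members, pathway genes past 1.5-fold, and the 3 genes most like each member. The values of 1 pathway gene are not reported here. The members, lists and classes were chosen with earlier results of these data known. The classes were rebuilt here and need not hold the same cells as classes of similar name in the study.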

Additional observations from a re-analysis of the deposited data

Results flagged for a closer look

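The Slamf7 ratio took opposite signs in different cells of the same libraries, and KD over Ctrl on the log2 scale gave 1.08 in CD8+ cycling T cells and -1.93 in Vcan+ monocytes, each past 1.5-fold with a counting interval that leaves out 0. After thinning of the cells, the first was 0.55, which is under 1.5-fold, and the second -2.28. With 1 library per group the difference between these cells was not tested. It was the only member with ratios past 1.5-fold in both directions among classes with at least 50 cells in each library.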

How the results depend on the processing

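No paired analysis was possible because each group had 1 library, and for the same reason no replicate could be left out. The cause of each change below was not tested, except where the setting itself sets how many UMIs or genes remain. In the leading classes, 62 of 67 recomputed ratios lay within the counting interval of the reported one and 57 kept its direction. The exceptions were Cd244a at 1.22 and Cd84 at 0.42 in Retnlg+ S100a8+ granulocytes with members allowed as variable genes, Cd84 there at 0.45 and Slamf9 in pDCs at -0.57 after thinning, and Slamf6 in CD4+ T cells at 0.78 with classes from single cells. Of the 24 ratios past 1.5-fold in other classes, 136 of 154 recomputed values were past 1.5-fold, 1 of these in the other direction, 14 others left the counting interval and 153 kept their direction. Slamf7 in endothelial cells turned to 0.61 after thinning, which leaves few UMIs. Clustering at resolution 1.0 gave 9 of 10 members the same leading class. Classes from single cells did so for 6, of which Cd84 and Slamf8 had only the broader class (granulocytes, macrophages). With these classes Ly9 and Slamf6 led in naive-like T cells, Cd244a in NK cells and Sh2d1a in CD8+ cycling T cells. With unthinned cells 6 of 10 members had a higher share in KD. In T, NK and B cells, macrophages with monocytes, granulocytes and dendritic cells, in this order, 1717, 586, 771, 2070, 2608, 1048 genes lay past 1.5-fold at 50 UMIs, 4236, 2440, 2823, 4387, 5232, 2817 at 10 UMIs and 764, 101, 129, 1146, 1275, 327 at 200 UMIs. With T cell subclasses at equal weight the ratios of Ly9, Slamf1, Cd48, Cd244a, Cd84, Slamf6, Slamf7 and Sh2d1a were 0.091, 0.12, 0.17, 0.28, 0.092, 0.52, 0.28 and 0.045, against 0.41, 0.54, 0.013, -0.028, 0.54, 1.19, 0.62 and -0.12. The class make-up held fixed, chosen after seeing the data, gave 0.011 for Ly9, 0.17 for Slamf1, 0.24 for Cd48, 0.22 for Cd244a, 0.43 for Cd84, -0.21 for Slamf7, -0.60 for Slamf8, -0.11 for Slamf9, 0.020 for Sh2d1a.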

Other observations

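The 7 classes with under 50 cells in a library fell outside the order of levels. Of these, the ones below held the highest levels of some members or differed most in number. In the Tcf7-high CD8+ T cells (86 Ctrl and 46 KD cells), Sh2d1a had 539 CPM (476 to 608, 267 UMIs) in Ctrl and 598 CPM (518 to 688, 198 UMIs) in KD. Slamf6 had 153 CPM (121 to 192, 76 UMIs) in Ctrl and 278 CPM (224 to 341, 92 UMIs) in KD, a log2 ratio of 0.86 (0.40 to 1.32). Both genes thus stood above their level in any class of the order. Kupffer cells, the resident macrophages of the liver (48 Ctrl and 83 KD cells), had Ly9 at 73.2 CPM (49.7 to 104, 31 UMIs) in Ctrl and 48.7 CPM (32.9 to 69.6, 30 UMIs) in KD, also above every class of the order. Kupffer cells had Cd84 at 208 (Ctrl) and 208 CPM (KD), and lower levels in KD of Slamf9, -1.58 (-2.48 to -0.73), Slamf7, -1.05 (-1.80 to -0.32), and Slamf8, -0.90 (-1.54 to -0.26). Of the 6 members with enough UMIs there, 4 were lower past 1.5-fold, beside 10.8% of all 3360 genes. They were Slamf7, Slamf8, Slamf9 and Ly9, and the Ly9 counting intervals of the libraries overlap. Higher past 1.5-fold were 0 members, beside 9.26% of genes. The Zbtb16+ Il17a+ T cells (27 Ctrl and 117 KD cells) had 3 UMIs in Ctrl and 31 in KD for Ly9, or 33.5 (Ctrl) and 65.8 CPM (KD). The Ltc4s+ Pf4+ macrophages came almost only from KD (9 Ctrl and 397 KD cells), and there Cd84 stood at 220.4 CPM (204 to 238, 683 UMIs), Cd48 at 198 CPM (183 to 214, 614 UMIs) and Slamf7 at 33.9 CPM (27.7 to 41.0, 105 UMIs).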
